A study of Mus musculus with 8 samples.

Results

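The circadian clock genes described here are 10 transcription regulators, the activators Arntl, Clock and Npas2, the repressors Per1, Per2 and Per3, the output factors Dbp and Tef, and the nuclear receptors Nr1d1 and Nr1d2. They were taken by symbol from the authors' deposited comparison of mouse tongue, which has 23235 rows, and all 10 were found there and had a completed test. That table compares 3 tongue squamous cell carcinomas induced with the quinoline carcinogen 4-nitroquinoline 1-oxide (4-NQO) with 5 normal tongues that were not given it. All 8 samples came from female C57BL/6 mice, with no other genotype or agent named, and RNA was selected on poly-T beads before sequencing. The labels give no age, dose, length of treatment or hour of tissue collection, and do not state how many animals were used. Levels are FPKM, which scale fragments by transcript length and by all mapped fragments, and the authors' deposited table holds 1 value per group, so the spread between samples and the depth of each sample are unknown.

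The mammalian clock is a feedback loop of transcription. BMAL1, the product of Arntl, pairs with CLOCK or its relative NPAS2 and switches on genes that carry E-boxes, among them the Per and Cry genes, Dbp, Tef and the REV-ERB receptor genes Nr1d1 and Nr1d2. PER and CRY proteins then block BMAL1 and CLOCK, while the REV-ERB receptors repress Arntl through ROR elements, where the ROR receptors activate it. DBP, TEF and HLF bind D-boxes in output genes and in Per genes, and NFIL3 represses there. In most organs, stratified epithelium and skeletal muscle included, Arntl transcripts peak at the opposite time of day from Dbp and the REV-ERB receptors.

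The elements that these factors bind were searched in the promoters of the members. RefSeq promoter windows of GRCm38.p6, which run from 250 bases before to 50 bases after a gene's start, matched 9 of the 10 members, all but Per2, with 14 windows. Each motif was searched on both strands, and a match is a description of these letters only. Bases outside the windows were not searched, so a motif not found here is not shown to be absent from the gene. The E-box CACGTG was found in Per1 and Tef, 2 of the 9 members, or 3 of their 14 windows, against 7.15% of all 32851 windows. The D-box TTATGTAA was found in Per3 alone of the 9 members, with 2 copies in 1 of 14 windows, against 0.938% of all windows. Its variant TTACGTAA was in none of the 9, against 0.119%. The ROR element was searched as an AGGTCA or GGGTCA core with its A- and T-rich flank. It was found in Arntl alone of the 9, in 1 of the 14 windows, against 0.384% of all windows. The bare core AGGTCA overlaps that element in Arntl and was also found in Clock, Per1 and Nr1d2. It was thus in 4 of the 14 windows, against 16.3% of all windows. The cyclic AMP element TGACGTCA (1.79% of all windows) and the palindromic glucocorticoid response element (0.00913%) were in none of the 9.

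The matched stretches are shown because they hold the letters of the 3 binding elements named above, with the motif in capitals. They run 5′ to 3′ on the gene's strand and come from RefSeq, build GRCm38.p6. For Per1, Tef (which has 2 annotated starts) and Per3 these are the 250 bases before the start, and for Arntl the 30 bases round the ROR element, which lies 27 to 37 bases into the transcript from the later of its 2 starts.
Per1 (chr11:69098699-69098948, plus strand): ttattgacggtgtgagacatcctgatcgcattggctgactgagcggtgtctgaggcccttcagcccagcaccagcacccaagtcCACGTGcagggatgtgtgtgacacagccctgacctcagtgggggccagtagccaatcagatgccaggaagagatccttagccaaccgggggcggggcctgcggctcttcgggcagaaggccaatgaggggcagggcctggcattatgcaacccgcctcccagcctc
Tef (chr15:81802423-81802672, plus strand): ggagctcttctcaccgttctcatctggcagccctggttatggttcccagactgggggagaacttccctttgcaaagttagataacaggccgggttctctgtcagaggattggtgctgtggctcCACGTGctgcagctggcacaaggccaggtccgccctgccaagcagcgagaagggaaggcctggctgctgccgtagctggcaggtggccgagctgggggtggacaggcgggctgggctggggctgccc
Tef (chr15:81811164-81811413, plus strand): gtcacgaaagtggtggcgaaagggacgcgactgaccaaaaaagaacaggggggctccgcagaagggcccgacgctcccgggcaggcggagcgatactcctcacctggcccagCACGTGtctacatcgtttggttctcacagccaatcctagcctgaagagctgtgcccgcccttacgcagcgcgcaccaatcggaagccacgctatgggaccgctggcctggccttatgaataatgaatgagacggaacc
Per3 (chr4:151044666-151044915, minus strand): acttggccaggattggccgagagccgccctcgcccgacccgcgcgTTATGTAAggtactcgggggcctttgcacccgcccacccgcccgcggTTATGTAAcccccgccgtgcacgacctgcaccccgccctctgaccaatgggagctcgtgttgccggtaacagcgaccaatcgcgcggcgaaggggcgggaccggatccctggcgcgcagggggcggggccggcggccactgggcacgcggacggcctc
Arntl (chr7:113207527-113207556, plus strand): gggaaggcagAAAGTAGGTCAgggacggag

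In tumours the 3 activators stood higher than in normal tongue and the 7 genes of the repressing and output arms stood lower, but only Per2 passed the authors' test. The authors' deposited table called Per2 lower at a q-value (the authors' adjusted p) under 0.05, which is 1 of the 10 members. None of the 10 members was called higher. Over all 15783 tested genes 6.26% were called, 3.07% higher and 3.19% lower, so the count of members called is too small to set them apart. At an unadjusted p under 0.05 the same table holds 7 of the 10 members, against 20.7% of all tested genes. The members were chosen with earlier results of these data known, so that contrast is a description only. The median log2 fold change of the members, tumour over normal, was −1.04 in the authors' deposited table, against −0.04 for the 15686 tested genes that have a finite fold. Negative folds were listed for 7 of 10 members and for 52.4% of those genes. Skeletal muscle markers moved with the lower group, with a median log2 fold change of −1.60 over 21 tested genes. Fibroblast markers had a median of −0.66 over 12 tested genes, and keratinocyte markers one of 1.35 over 17. The part of these cell types in the clock values was not tested. Nor can a difference in the hour of collection, which is not given, be told apart from tumour state.

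**Figure D1:**
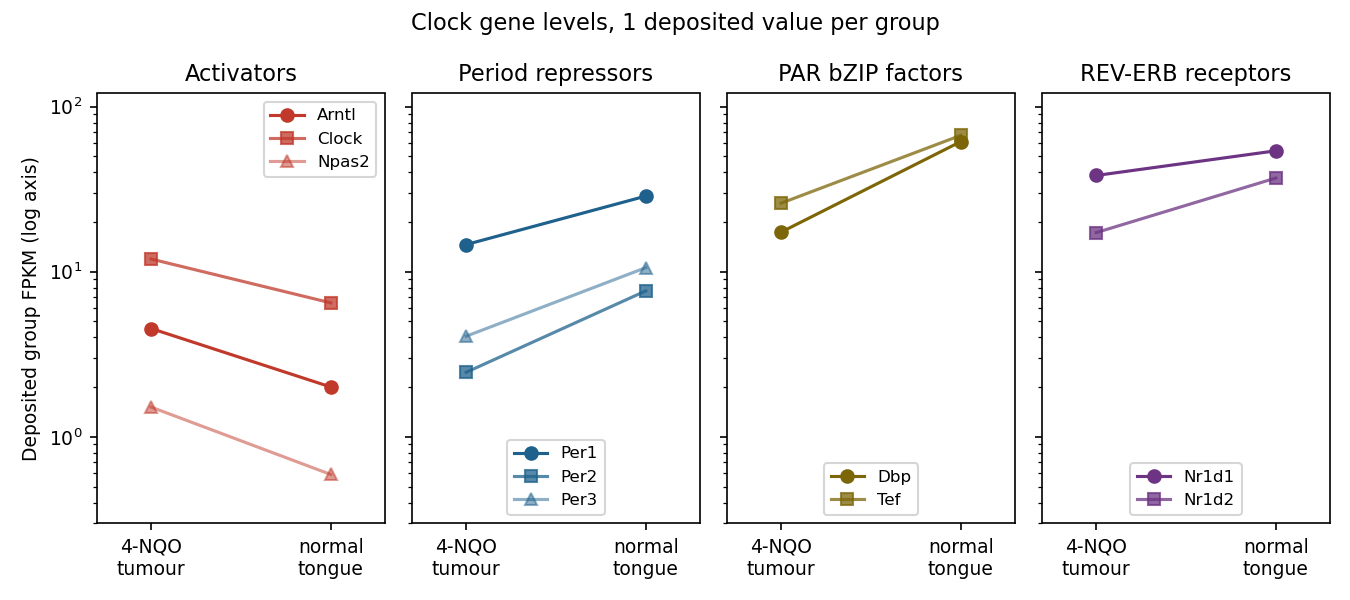
Deposited group FPKM (log axis) of the 10 clock genes in 4-NQO tumours (left) and normal tongue (right), 1 value per group, joined by a line per gene. Lines of the activators Arntl, Clock and Npas2 slope down to the right and those of the other 7 genes slope up.

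The activators all had positive fold changes without passing the test. Arntl, which encodes the obligate partner BMAL1, stood at 4.53 FPKM in tumours and 2.00 FPKM in normal tongue in the authors' deposited table (log2 fold change 1.18 ± 0.60, q = 0.583). Here and below ± is the standard error implied by the authors' test statistic. Clock, the more abundant of its partners, was listed in the authors' deposited table at 11.9 FPKM in tumours and 6.48 in normal tongue (0.88 ± 0.46, q = 0.634). Npas2, which can replace CLOCK, was the rarest member in both groups of the authors' deposited table, at 1.51 FPKM in tumours and 0.591 in normal tongue (1.36 ± 0.65, q = 0.511). The 3 activators thus lay between 1.84-fold and 2.56-fold higher. Their 95% intervals in log2 units, from the implied errors, were 0.01 to 2.34 for Arntl, −0.02 to 1.79 for Clock and 0.08 to 2.64 for Npas2. Npas2 is the member that depends on the scale, since its log2 difference was 0.66 with 1 FPKM added to both groups. Clock exceeded Npas2 7.88 times in tumours and 10.9 times in normal tongue by the FPKM of the authors' deposited table.

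Among the period genes, whose products pair with the cryptochromes to repress BMAL1 and CLOCK, Per2 fell and its relatives had negative folds. Per2 fell to 2.46 FPKM in tumours, against 7.65 FPKM in normal tongue, in the authors' deposited table (−1.64 ± 0.48, q = 0.0270). The listed locus of Per2 runs on chromosome 1 from 93312559 to 93355905, in coordinates whose mouse build is not named. Its level was 3.11 times higher in normal tongue, and 5.64% of tested genes had a lower fold. Per3, the least required of the 3 for rhythms in mice, was listed in the authors' deposited table at 4.07 FPKM in tumours and 10.6 in normal tongue (−1.38 ± 0.43, q = 0.0522). Per2 and Per3 were thus the members just inside and just outside the threshold. Per1, which also answers to glucocorticoids and cyclic AMP, was the most abundant of the 3 in both groups, at 14.6 FPKM in tumours and 28.7 in normal tongue of the authors' deposited table (−0.97 ± 0.55, q = 0.732). The 95% interval for Per1 was −2.05 to 0.10 in log2 units, which holds both no change and a 4-fold fall. The order Per1, Per3, Per2 held in both groups, and Per3 carries the 2 D-box copies printed above.

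Per3 changed sides with the adjustment. The authors' q-values are larger than a Benjamini-Hochberg adjustment of their own p-values over the 15783 tested genes, which gave Per3 an adjusted p of 0.0216 and Per2 one of 0.0117 from the deposited test. Under that adjustment 2 of the 10 members passed, against 9.00% of all tested genes. The authors' deposited table has 8.05% of tested genes at q under 0.1, with the same 2 members, and 3.62% at q under 0.01, with no member. Among genes at 1 FPKM or more in the higher group, Benjamini-Hochberg adjustment called 10.3%, again with Per2 and Per3 the members.

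Dbp and Tef, proline- and acidic-rich (PAR) leucine zipper factors that carry the clock signal to output genes, were the most abundant members in normal tongue and ranked below Nr1d1 in tumours. Dbp had the most negative fold of the 10 members in the authors' deposited table, at 17.4 FPKM in tumours and 61.4 in normal tongue (−1.82 ± 0.73, q = 0.258). Its error was also the widest of the 10. Tef was listed in the authors' deposited table at 26.0 FPKM in tumours and 67.0 in normal tongue (−1.36 ± 0.49, q = 0.153). Summed, the FPKM of the pair came to 43.4 in tumours and 128 in normal tongue. Dbp shares its listed locus with Sphk2, a sphingosine kinase gene on the opposite strand, and 18.0% of the exon bases of Dbp in GENCODE vM21 also lie in Sphk2 exons. Sphk2 stood at 14.5 FPKM in tumours and 23.8 in normal tongue in the authors' deposited table (−0.71 ± 0.60, q = 1.00). Whether the authors counted by strand is not given in the sources used here, so reads in that overlap cannot be told apart.

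The REV-ERB receptors, heme-binding repressors of Arntl, had the smallest folds on the negative side together with Per1. Nr1d1, which encodes REV-ERBα, was the most abundant member in tumours, at 38.3 FPKM against 54.0 FPKM in normal tongue in the authors' deposited table (−0.50 ± 0.45, q = 1.00). Its 95% interval was −1.38 to 0.39 in log2 units. Nr1d2, which encodes REV-ERBβ, was listed in the authors' deposited table at 17.2 FPKM in tumours and 36.9 in normal tongue (−1.10 ± 0.44, q = 0.273). Nr1d1 thus exceeded Nr1d2 2.22 times in tumours and 1.46 times in normal tongue. In GENCODE vM21 the end of Nr1d1 overlaps Thra, the thyroid hormone receptor alpha gene on the opposite strand, over 8.55% of the exon bases of Nr1d1. The loci listed for Nr1d1 and Thra in the authors' deposited table do not overlap. Thra was listed in the authors' deposited table at 14.2 FPKM in tumours and 31.6 in normal tongue (−1.15 ± 0.42, q = 0.167). That value is for a locus outside the overlap, and whether Thra reads were counted for Nr1d1 cannot be told.

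Ratios of genes from opposite arms of the loop were also set side by side. Arntl stood at 1.84 times the FPKM of Per2 in tumours and 0.262 times in normal tongue in the authors' deposited table. Arntl over Dbp was 0.261 in tumours and 0.0326 in normal tongue. The shift was smaller for Arntl over Nr1d1, at 0.118 in tumours and 0.0371 in normal tongue. Summed over each role, the activators came to 18.0 FPKM in tumours and 9.07 in normal tongue, and the period genes to 21.1 FPKM in tumours and 46.9 in normal tongue. The order of levels in tumours, high to low, was Nr1d1, Tef, Dbp, Nr1d2, Per1, Clock, Arntl, Per3, Per2 and Npas2. In normal tongue it was Tef, Dbp, Nr1d1, Nr1d2, Per1, Per3, Per2, Clock, Arntl and Npas2. With 1 value per group, it cannot be said which neighbours in either order differ beyond the spread of samples, and these ratios carry no error or test. The hour of tissue collection is not given, so hour and tumour state cannot be told apart in them.

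Among the other loop genes described here, Arntl2 was the one that passed the test. Of these 10 genes 9 were tested in the authors' deposited table, where 1 rose and 8 did not pass, against 6.26% of all tested genes called. The median log2 fold change of the 9 was −0.82. Arntl2, a paralog of Arntl that can also pair with CLOCK, rose to 6.65 FPKM in tumours, against 1.50 FPKM in normal tongue, in the authors' deposited table (2.15 ± 0.63, q = 0.0265). Arntl was at 0.681 times the level of Arntl2 in tumours and 1.34 times in normal tongue. Rora, a ROR receptor that activates through ROR elements, was listed in the authors' deposited table at 3.31 FPKM in tumours and 6.17 in normal tongue (−0.90 ± 0.60, q = 0.948). Rorb was not tested, at 0.0212 FPKM in tumours and 0.0217 in normal tongue of the authors' deposited table.

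The cryptochromes, partners of the PER proteins, both had negative folds that did not pass. Cry2 was listed in the authors' deposited table at 8.14 FPKM in tumours and 16.6 in normal tongue (−1.03 ± 0.46, q = 0.399). Cry1 stood at 4.23 FPKM in tumours and 5.11 in normal tongue of the authors' deposited table (−0.27 ± 0.48, q = 1.00). At the D-box, the activator Hlf had 3.55 FPKM in tumours and 7.30 in normal tongue of the authors' deposited table (−1.04 ± 0.45, q = 0.351). The D-box repressor Nfil3 had 10.2 FPKM in tumours and 9.44 in normal tongue of that deposited table (0.11 ± 0.47, q = 1.00). Dbp over Nfil3 was therefore 1.71 in tumours and 6.50 in normal tongue. Among repressors that bind or block at E-boxes, the authors' deposited table gave Bhlhe40 50.1 FPKM in tumours and 44.9 in normal tongue (0.16 ± 0.51, q = 1.00). Bhlhe41 had 5.40 FPKM in tumours and 9.76 in normal tongue of the authors' deposited table (−0.85 ± 0.52, q = 0.839). Gm129, now named Ciart, had 4.86 FPKM in tumours and 8.59 in normal tongue of that deposited table (−0.82 ± 0.56, q = 0.976), at a locus it shares with 2 other listed genes. The listed loci of Cry2, Rora and Bhlhe40 also hold 1 other gene each. The E-box CACGTG was found in 3 of the 9 loop genes that matched RefSeq, namely Cry1, Bhlhe41 and Ciart, and Ciart had 3 copies. That is 3 of the 10 promoter windows of the 9 genes, against 7.15% of all windows.

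**Figure D2:**
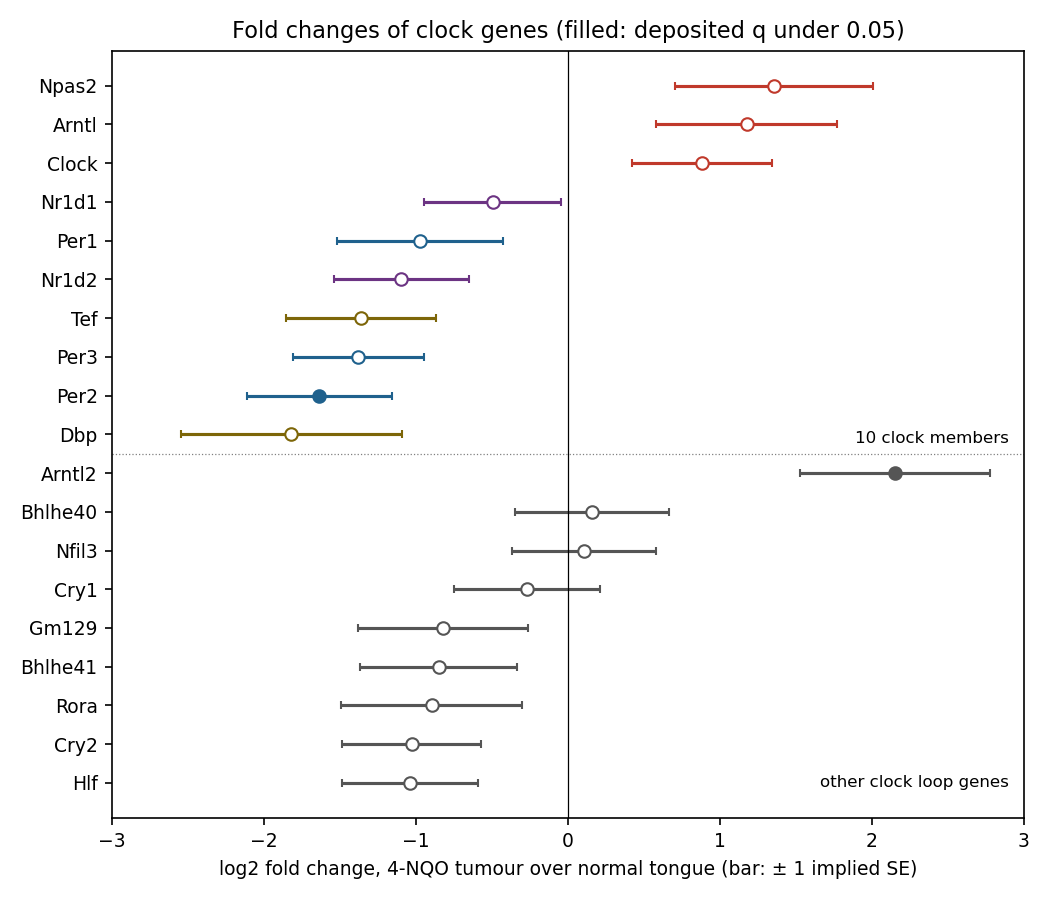
Log2 fold change (tumour over normal, horizontal axis) of the 10 clock genes (above the dotted line, coloured by role) and 9 other tested loop genes (below it, grey), with bars of 1 implied standard error. Filled points, Per2 and Arntl2, have a deposited q under 0.05.

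Enzymes and cofactors that act on clock proteins showed no common direction. Of 19 tested genes of this kind, none rose, 2 fell and 17 did not pass in the authors' deposited table, against 6.26% of all tested genes called. The median log2 fold change of the 19 was 0.03. Prkaa2, the catalytic AMPK subunit α2 that predominates in skeletal muscle, fell to 4.37 FPKM in tumours, against 15.9 FPKM in normal tongue, in the authors' deposited table (−1.86 ± 0.43, q = 0.00125). Usp2, a ubiquitin protease with a strongly rhythmic transcript that acts on clock proteins, fell to 21.2 FPKM in tumours, against 73.7 FPKM in normal tongue, in that deposited table (−1.80 ± 0.51, q = 0.0187). The ubiquitin ligase gene Btrc had 2.08 FPKM in tumours and 4.17 in normal tongue of the authors' deposited table (0.499 times the normal level, q = 0.427). Timeless, a replication fork protein with a debated part in the mammalian clock, had 3.63 FPKM in tumours and 1.87 in normal tongue there (0.96 ± 0.60, q = 0.883).

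Genes listed as outputs of the clock were mixed, with 5 positive and 10 negative folds. Of 15 tested output genes 1 fell, none rose and 14 did not pass in the authors' deposited table, against 6.26% of all tested genes called. The median of the 15 was −0.44. The gene that fell was Usp2, which also stands on the list above. The 14 genes outside that list had no call and a median of −0.37. Among these 14, 4 had an unadjusted p under 0.05 in the deposited test, against 20.7% of all tested genes. Tsc22d3, which encodes the glucocorticoid-induced leucine zipper GILZ and cycles in many organs, had 32.0 FPKM in tumours and 102 in normal tongue of the authors' deposited table (−1.68 ± 0.55, q = 0.0790). Pdk4, which restrains glucose oxidation in muscle, had 26.3 FPKM in tumours and 74.8 in normal tongue of that deposited table (−1.51 ± 0.56, q = 0.182).

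Markers of the cell types of the tongue differed between the groups as well. All 21 tested skeletal muscle markers had negative folds in the authors' deposited table (median −1.60), and 2 of them passed, against 6.26% of all tested genes. The summed FPKM of these muscle markers was 12100 in tumours and 32900 in normal tongue. A further 6 muscle markers are listed at 0 in normal tongue by failed estimation, and none is listed at 0 in tumours. Of 17 tested keratinocyte markers 16 had positive folds, with a median of 1.35 and a sum of 7400 FPKM in tumours and 2880 in normal tongue. Calls were made for 3 of the 17, against the same 6.26%. Krt4, Krt13 and Krt14 are listed at 0 in tumours by failed estimation, the first pair also in normal tongue.

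Fibroblast markers had negative folds in 10 of 12 genes of the authors' deposited table, with 2 calls, against 6.26% of all tested genes. The fibroblast median was −0.66, with sums of 416 FPKM in tumours and 902 in normal tongue. Leukocyte markers had positive folds in 10 of 12 genes, with a median of 0.47 and sums of 119 FPKM in tumours and 81.1 in normal tongue. The deposited q-values called none of the 12, and 2 had an unadjusted p under 0.05, against 20.7% of all tested genes. Of the 7 clock genes with negative folds, Dbp (−1.82 ± 0.73) and Per2 (−1.64 ± 0.48) lay below the muscle median of −1.60. The other 5 lay above it, among them Per3 (−1.38 ± 0.43) and Tef (−1.36 ± 0.49). Dbp, Per2, Per3 and Tef were all within 1 implied standard error of that median. Per1 (−0.97 ± 0.55), Nr1d1 (−0.50 ± 0.45) and Nr1d2 (−1.10 ± 0.44) lay more than 1 implied standard error above it. These last genes lay within 1 implied standard error of the fibroblast median of −0.66. Arntl, Clock and Npas2 had positive folds, and the part of muscle or of the other cell types in the clock values was not tested. In bulk tissue, fewer cells of a type and less RNA per cell cannot be told apart.

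**Figure D3:**
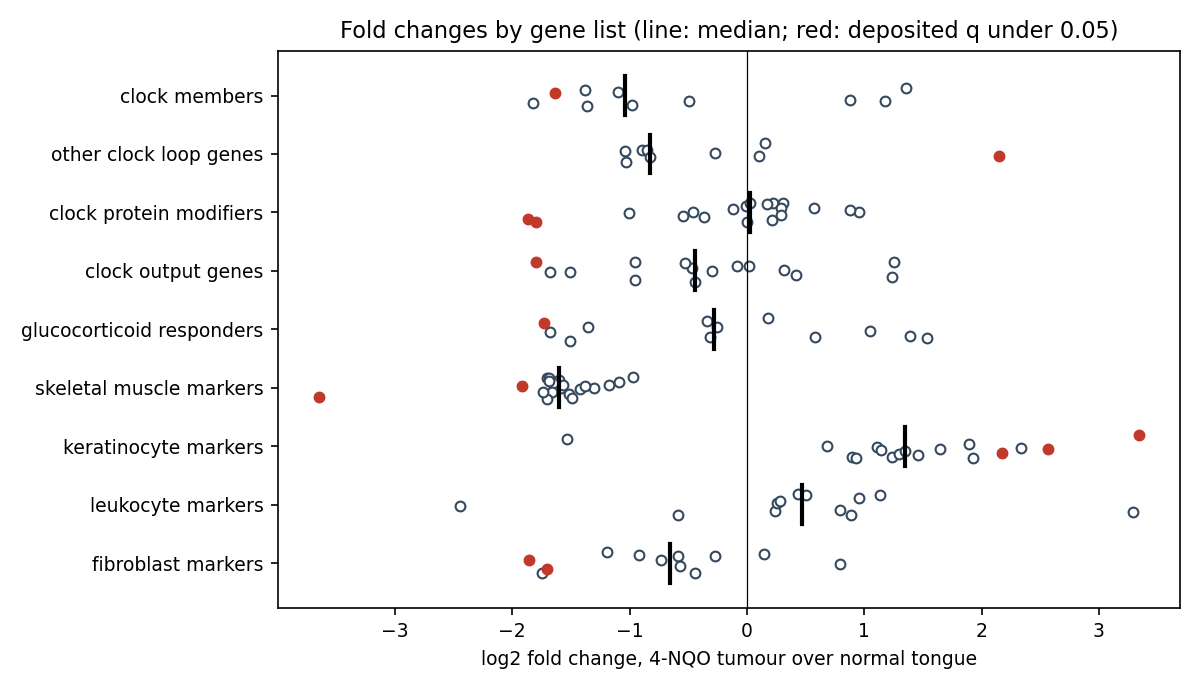
Log2 fold change (tumour over normal) of each tested gene in 9 lists, 1 point per gene, with the list median as a black line and genes at a deposited q under 0.05 in red. The clock members split between positive and negative values, with a median of −1.04, while the 21 muscle markers all lie below 0.

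The precision of the deposited test limits what can be read from the members. Their implied standard errors ran from 0.43 to 0.73 in log2 units, against a median of 0.53 for all genes with a finite fold. The smallest absolute log2 fold change of a called gene was 1.40 in the authors' deposited table, and 2 of the 10 members, Dbp and Per2, lay beyond that size.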

How the data were processed

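Messenger RNA of 8 mouse tongue samples was sequenced, and groups (3 4-NQO tongue carcinomas, 5 normal tongues) follow the sample titles. Per the submitters' processing notes, GSNAP 2011.11.17, edgeR and the build GRCh37, a human assembly, were named with no role. Which program made the table, and on which mouse build, is not given in the sources used here. Per the file headers, the authors' deposited table gives for each gene 1 FPKM per group, a log2 fold change, a test score (signed opposite to the fold), a p-value and a q-value. Each score gives the listed p-value as a two-sided normal p, within 1e-04, so fold over score was taken as the standard error.

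The groups were not tested anew. A gene counted as tested at status OK (15783 rows) and as called at a deposited q under 0.05. Of these, 97 have a group at 0 and no fold. Benjamini-Hochberg adjustment, other thresholds, pseudocounts of 1 and 0.1 FPKM and re-centring were alternatives, and the adjustment was tested on simulated data. Members and lists were chosen with earlier results of these data known. All 10 members are named, as is every other loop gene analysed, and 1 listed gene is not reported here. Of further clock lists the called genes and the 2 uncalled genes with the largest fold at 1 FPKM or more are named, and marker lists are given as counts. The listed loci of the members were not converted to GRCm38. With 1 value per group no gene could be ranked by likeness of pattern. Where samples are technical repeats, the p-values measure only their spread. Python 3.11.15, pandas and scipy 1.17.1 were used.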

Additional observations from a re-analysis of the deposited data

How the results depend on the processing

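The alternative runs for fold changes were pseudocounts of 1 and 0.1 FPKM and re-centring on a median. That median was of all tested genes (−0.04) or of the 4835 genes at 10 FPKM or more in both groups (0.01). No run could have changed the sign of a member, since an equal pseudocount in both groups keeps it. Both medians were also smaller in size than the smallest member fold, −0.50 for Nr1d1. Benjamini-Hochberg adjustment moved the members called to 2 (Per3 at −1.38, adjusted p = 0.0216), as did q under 0.1, and q under 0.01 gave 0. The 1 FPKM filter was run together with Benjamini-Hochberg adjustment and also gave 2, so the filter itself moved nothing there. The cause is the adjustment or threshold itself, with 988 genes called by the deposited q, 1420 by Benjamini-Hochberg and 1397 by Benjamini-Hochberg after the filter. Over all tested genes 3.62% were called at q under 0.01, 8.05% at q under 0.1 and 9.00% under Benjamini-Hochberg adjustment. Of the genes left after the filter 10.3% were called. At q under 0.01 the other loop genes, the output genes and the fibroblast markers had 0 calls. The protein modifiers, muscle markers and keratinocyte markers had 1 each. Output genes had 2 calls and glucocorticoid responders 3 under Benjamini-Hochberg with or without the filter and at q under 0.1, muscle markers had 3 under Benjamini-Hochberg and 4 with the filter added, and leukocyte markers 1 under Benjamini-Hochberg and q under 0.1. With the looser E-box CANNTG, 6 of 9 members and 8 of their 14 windows had a match, against 72.3% of all windows. No paired analysis was possible because the deposited table has 1 value per group, and for the same reason no sample could be left out. Depth is unknown, and the implied errors alone set the precision.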

Other observations

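Glucocorticoid-responsive genes, some of which the clock also drives, did not share a direction. Of 12 tested members of this list 1 fell, none rose and 11 did not pass in the authors' deposited table, against 6.26% of all tested genes called. The median log2 fold change of the 12 was −0.28. Klf9, a Krüppel-like factor induced by glucocorticoids and rhythmic in skin, fell to 11.5 FPKM in tumours, against 38.2 FPKM in normal tongue, in the authors' deposited table (−1.73 ± 0.44, q = 0.00546). Tsc22d3, described with the output genes, had the next most negative fold, and Pdk4 stands on both lists as well. At the other end Nfkbia, the NF-κB inhibitor, had 125 FPKM in tumours and 43.2 in normal tongue of the authors' deposited table (1.53 ± 0.56, q = 0.160). With Benjamini-Hochberg adjustment of the deposited p-values 3 of the 12 passed, all with negative folds, against 9.00% of all tested genes.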
